A study of Mus musculus with 2 samples.

Results

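Clusters of separate, close CtBP2 sites were described in MIN6, a line from a mouse insulinoma that stands in for pancreatic beta cells; the labels give no treatment or genetic change. The groups were 1 anti-CtBP2 chromatin immunoprecipitation (ChIP) library and 1 library of input chromatin, fixed and sheared in the same line without precipitation. No knockout, treatment or IgG library was analysed here, so a site is a place where the ChIP library held many reads, and precipitation of DNA not occupied by CtBP2 was not tested. The clusters were chosen by ChIP read counts. After 1 read per chromosome, 5 prime end and strand was kept, autosomes 1 to 19 and chromosome X were divided into 1 kb bins, and 26 bins of 10 kb with at least 4200 deposited input reads were left out. A site was a run of 1 or 2 bins with at least 40 distinct ChIP reads each, and a cluster was a chain of at least 3 sites with at most 10 kb between the end of a site and the start of the next. This gave 333 clusters with 1236 of the 15778 sites of the genome (7.83%, exact 95% binomial interval 7.42 to 8.26). The other sites were 12484 single sites and 2058 sites in 1029 pairs, and 805 longer runs of 3 or more bins were not sites. Of 2407019 bins with a read in either library, 1.03% reached 40 ChIP reads.

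CtBP2 (C-terminal binding protein 2) is a transcriptional co-repressor that senses NAD(H), forms dimers and does not itself recognise a DNA sequence. It is brought to chromatin by DNA-binding proteins and brings along enzymes that remove acetyl and methyl groups from histones. Close groups of binding sites are a familiar feature of gene-rich sequence, where promoters lie near each other, and of strong tissue-specific enhancers, which consist of several elements within a short stretch. Annotation and sequence of build mm9, to which these reads were aligned, were not used here, so clusters are named by their positions, 1-based on mm9, and not by genes.

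The ChIP library held 34890624 deposited reads and the input library 20896067, of which 8465978 and 12441172 distinct reads remained on the chromosomes used. A bin with a read held a mean of 3.48 ChIP and 5.13 input reads. Input was scaled by the ratio of these totals, 0.68 distinct ChIP reads per input read. There was no replicate, and all intervals cover counting error only, since amplified reads carried no molecular identifiers and need not be separate molecules. Counts of sites in clusters have wider true errors than their binomial intervals, because the sites of a cluster were chosen together.

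Most clusters were small. There were 206 clusters of 3 sites, 75 of 4, 21 of 5 and 19 of 6, and 12 larger ones, made up of 6 with 7 sites, 3 with 8, 2 with 9 and 1 with 15. A cluster spanned a median of 17 kb (interquartile range 13 to 22 kb, full range 5 to 59 kb), and all clusters together spanned 6.16 Mb. The centres of neighbouring sites, taken as the median position of their reads after a shift of 110 bp toward the fragment centre, lay a median of 6009 bp apart (1436 to 12322 bp). Cluster sites held 305931 distinct ChIP reads, 3.61% of the library, and 89362 input reads, 0.718%. A cluster held a median of 835 ChIP reads at its sites, with a range of 153 to 6064.

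**Figure D1:**
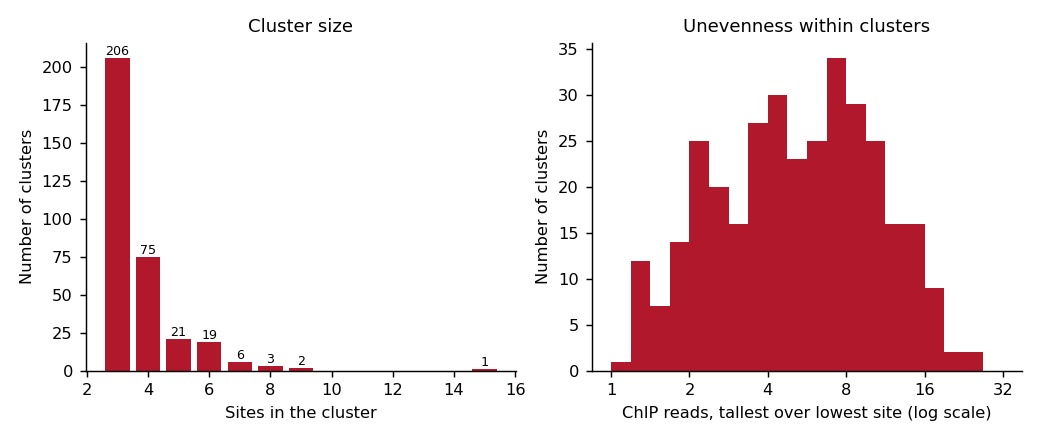
Left, the number of clusters (y axis) with each number of sites (x axis); right, the number of clusters by the ChIP reads of the tallest site over those of the lowest (x axis, log scale). Clusters of 3 sites are the most frequent with 206 of 333, and the median ratio of the tallest to the lowest site is 5.3.

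Most gaps between the sites of a cluster held at least 1 bin almost free of ChIP reads. Of 903 gaps between neighbouring sites, 566 held a bin with 0 ChIP reads and 788 a bin with at most 4, and in 245 of 333 clusters every gap did. The median gap was 5 kb. In 27 clusters a gap never fell below 20 reads, and 24 of these 28 gaps were single bins, so these neighbours were only weakly separated. Of the 103 gaps of 1 kb, 40 fell to at most 4 reads. A run of 3 or more bins, too long to be a site, lay in a gap of 9 clusters. The gaps were not empty throughout, as 264 of the 903 also held a bin of 20 to 39 reads. Bins of the gaps without a longer run held 4.7 ChIP reads per kb, against 180 at the sites and 1.36 in all bins below 40 reads. Around the centres of cluster sites, ChIP averaged 580 reads per kb in the central 200 bp, 9.2 at 1 to 2 kb and 31 at 4 to 5 kb, where neighbouring sites come in. Around single sites the values were 622, 2.33 and 2.16.

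The rule set sharp limits on a continuous range of values. In 41 clusters the lowest site held 40 to 42 reads, and 40 bins of 37 to 39 reads lay within the span of clusters and fell just short. Over the genome, 885 bins held 40 to 42 reads and 956 held 37 to 39. Neighbouring sites were 10 kb apart in 149 cases and 11 kb apart in 156, with no step at the limit. The number of clusters followed these limits, with 656 for gaps of up to 20 kb, 158 for up to 5 kb, 217 for a threshold of 60 reads and 586 where repeated reads were kept.

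Tall and low sites stood side by side in most clusters. The tallest site held a median of 5.3 times the ChIP reads of the lowest (interquartile range 3.08 to 8.9), and the ratio was at least 2 in 299 clusters and at least 10 in 61. With 200 reads taken as the mark of a tall site, a limit set after the values were seen, 253 clusters held both tall and low sites, 50 held only low ones and 30 only tall ones. In 94 clusters exactly 1 site was tall. The limit of 200 reads lay near the median, which was 178 ChIP reads at cluster sites and 197 at single sites. Groups of sites taken without regard to height would thus also often hold both kinds, and their number was not computed. Among the 206 clusters of 3 sites, the tallest was the first in 69, the middle in 56 and the last in 81.

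Sites of 1 cluster were little more alike than sites of different clusters. The SD of log2 ChIP reads per kb was 1.029 within clusters and 1.083 over all cluster sites, and the SD of the log2 ratio of ChIP to input reads was 0.765 within clusters and 0.82 over all. For log2 input reads per kb, which the rule did not use, the SD was 0.613 within clusters and 0.718 over all. Without the 3 clusters of even height and at least 5 sites described next, the input values came closer together, 0.62 within clusters and 0.655 over all.

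A few clusters of at least 5 sites, called ladders here, had sites of even height. Among the 52 clusters of at least 5 sites, a coefficient of variation of site heights below 0.25 was met by 3, while the median was 0.712 and the highest 1.29. Their values were 0.0741 on chromosome 4 and, in genome order, 0.191 and 0.0528 on chromosome 6. These 3 were also the clusters with the most ChIP reads. Clusters of 3 or 4 sites were left out of this choice. Some of them also lay below 0.25, down to 0.0835 in a cluster of 4 sites, so even height was not particular to the ladders. The limit of 0.25 was set after the values were seen. Among clusters of at least 5 sites, the next value above it was 0.263, in 5 sites on chromosome 11 at 98195001 to 98220000. Its centres were 3810 to 9679 bp apart. Its tallest site held 1.85 times the reads of its lowest, against 2.2 times in the ladder with the value of 0.191. By this ratio, not every ladder was more even than the other clusters.

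The cluster with the most sites, 15 on chromosome 4 at 88403001 to 88453000, was a ladder of equal peaks. Its sites held, in genome order, 236, 246, 216, 249, 268, 267, 253, 241, 237, 239, 203, 242, 259, 259 and 263 ChIP reads. The input reads of the same sites were 82, 73, 81, 60, 62, 74, 71, 77, 90, 90, 74, 83, 87, 88 and 92. The SD of the ChIP counts over the 15 sites was 18.2 around a mean of 245, where counting error alone gives 15.7. Of the 14 distances between neighbouring centres, 13 fell between 2904 and 2953 bp, and the remaining distance, 10277 bp, spanned a gap of 9 kb without a site. The lowest bin between neighbours held 0 to 3 reads. The reads of each site were narrowly placed, with an interquartile range of 102.75 to 128.5 bp, against a median of 175 bp over sites of other clusters with at least 200 and fewer than 400 reads. ChIP reached 4.57 times the scaled input (4.27 to 4.88).

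Another pair of ladders lay 53 kb apart on chromosome 6. The first, at 47601001 to 47637000, had 9 sites with 337, 690, 724, 730, 666, 742, 710, 722 and 743 ChIP reads, against 234, 540, 551, 618, 493, 556, 567, 514 and 579 input reads. All 8 of its centre distances lay between 4019 and 4367 bp. Only its first site, a single bin, was clearly lower than the others. The SD of its ChIP counts was 129 around a mean of 674, where counting error alone gives 26.0. The second, at 47690001 to 47724000, had 7 sites with 679, 790, 774, 727, 756, 704 and 733 ChIP reads, against 457, 608, 646, 551, 631, 556 and 545 input reads. This cluster had the most even heights of all, with a tallest site only 1.16 times the lowest. Of its 6 centre distances, 4 lay between 4290 and 4447 bp, and the others were 5544 and 9195 bp. The longest held a run of 3 bins at 47702001 to 47705000 with 1101 ChIP and 920 input reads, whose centre was 4436 bp from the site before and 4759 bp from the site after. This peak was not counted by the rule. The reads of each site were spread more widely than in the chromosome 4 ladder. Their interquartile range was 285.5 to 616.75 bp in the first chromosome 6 ladder and 492 to 594.5 bp in the second, against a median of 265.125 bp over sites of other clusters with at least 400 and fewer than 800 reads.

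The chromosome 6 ladders had the deepest input of all clusters. Their ratios to scaled input were 1.92 (1.84 to 1.99) for the first and 1.9 (1.82 to 1.98) for the second, among the lowest of all clusters, although their ChIP counts were the highest. The 31 sites of the 3 ladders held 4.87% of the ChIP reads at cluster sites and 11% of the input reads. Each distinct position was read 1.58, 1.62 and 1.72 times in ChIP in the ladders of chromosome 4 and, in order, chromosome 6, against 2.54 times over the sites of all other clusters. In the 49 other clusters of at least 5 sites, 51 of 238 centre distances (21.4%) lay within 10% of their cluster's median. The ladders were chosen by their heights, so their even heights describe that choice. Even spacing was not particular to them, since 2 of these 49 clusters had all distances within 10%. The first, 5 sites on chromosome 15 at 101054001 to 101085000, had steps of 7321 to 7677 bp, the most even of all clusters of at least 5 sites, but sites of 55 to 533 ChIP reads. The other, 5 sites on chromosome 18, had steps of 9515 to 11151 bp and sites of 41 to 83 ChIP reads. Its tallest site held 2.02 times the reads of its lowest, below the 2.2 times of the first chromosome 6 ladder. Both of these regularly spaced clusters were chosen after their values were seen. Whether the ladders are copies of a repeated unit, and how reads matching several places were assigned, was not tested.

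**Figure D2:**
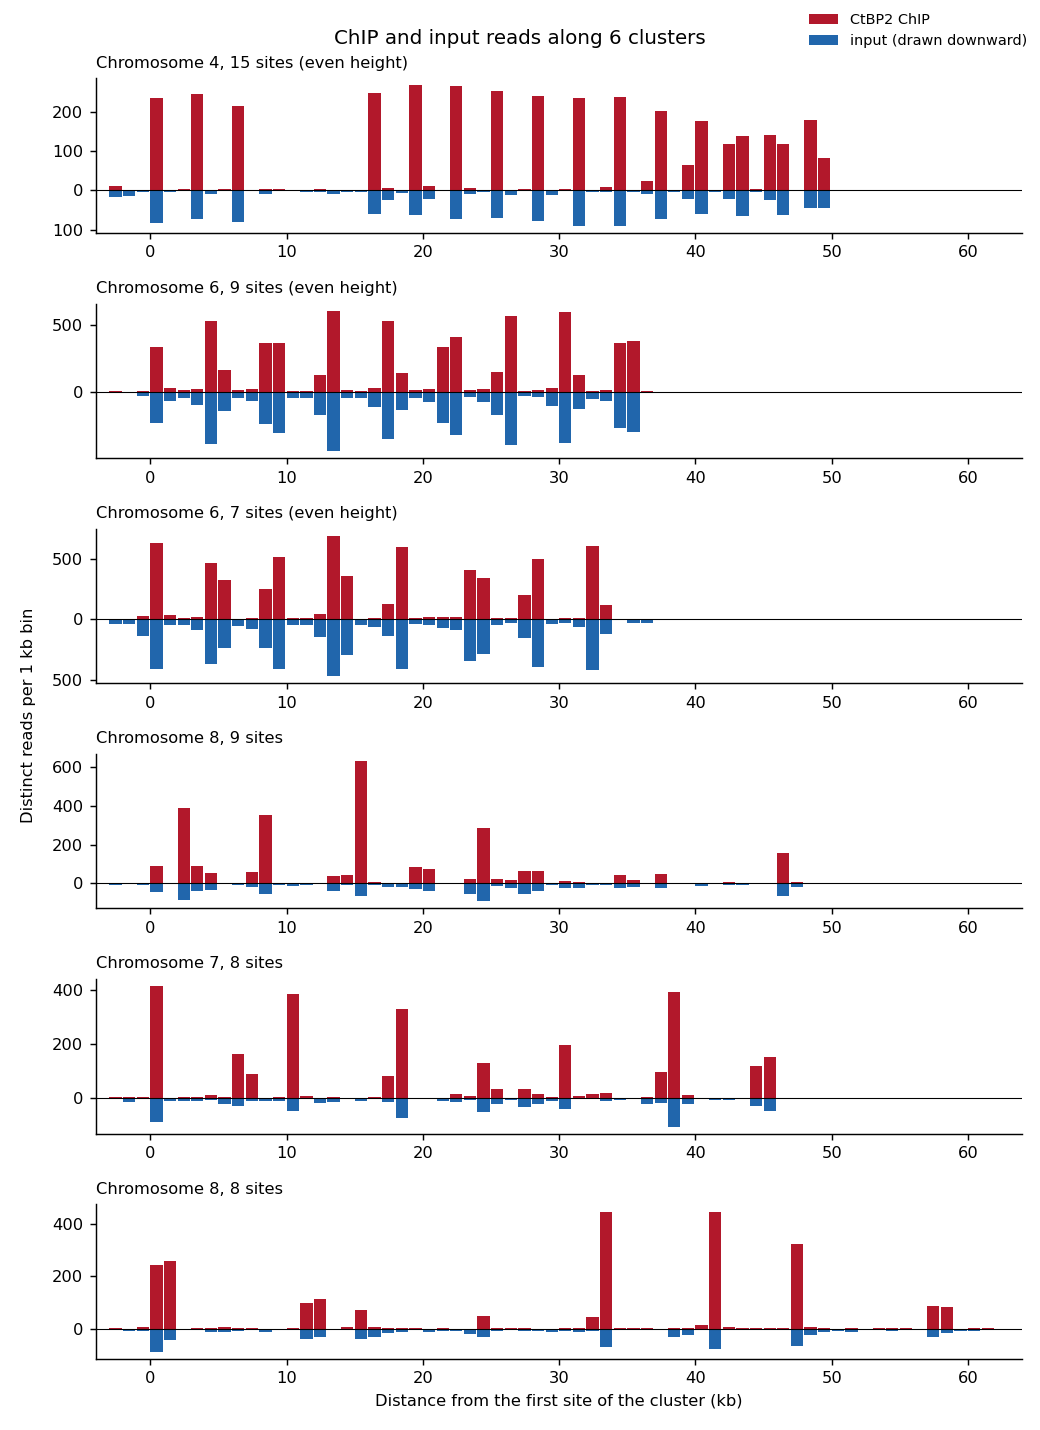
Distinct reads per 1 kb bin (y axis) by distance from the first site in kb (x axis). The upper panels hold the 3 ladders and the lower panels the 3 other clusters with the most sites. CtBP2 ChIP is drawn upward and input downward, each panel with its own scale. A site of 2 bins is drawn as 2 bars, whose sum is its height. By these sums the upper panels hold sites of like height, 203 to 268 ChIP reads in the first, apart from a first site of 337 reads in the second. Their steps are mostly regular, with a break of 10277 bp in the first. The third has a step of 5544 bp, and its distance of 9195 bp holds a run of 3 bins, drawn as a peak but not counted as a site. The lower panels hold sites of unlike height, 44 to 672 reads per site in the cluster of 9 sites on chromosome 8.

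The other clusters named for their number of sites had uneven heights. The cluster of 9 sites on chromosome 8 at 73985001 to 74032000 held 89, 416, 672, 159, 287, 131, 44, 50 and 155 ChIP reads, against 47, 73, 73, 71, 93, 90, 26, 25 and 67 input reads. A longer run of bins, not counted as a site, lay between its first 2 sites. Its tallest site had 13.5 times the scaled input and the site of 131 reads 2.14 times, with much the same input depth. A cluster of 8 sites on chromosome 7 at 148623001 to 148669000 held 412, 254, 383, 408, 130, 196, 487 and 270 ChIP reads, against 87, 41, 47, 89, 50, 40, 122 and 78 input reads. The site of 383 reads had the highest ratio to scaled input, 12 times, and the site of 130 reads the lowest, 3.82 times.

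The longest cluster, on chromosome 8 at 87323001 to 87382000, placed 8 sites over 59 kb. Its sites held 501, 210, 71, 47, 494, 448, 322 and 172 ChIP reads, against 132, 69, 38, 33, 77, 77, 65 and 49 input reads. The lowest bin of every gap held 0 or 1 ChIP reads. Further clusters of many sites were the 7 sites on chromosome 19 at 6046001 to 6086000, with 57 to 529 ChIP reads, and the 7 sites on chromosome 8 at 73267001 to 73305000, with 48 to 535. On chromosome 10, clusters of 8 sites at 80783001 to 80828000 (41 to 549 ChIP reads) and of 7 sites at 80720001 to 80757000 (41 to 592) were close neighbours.

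Outside the ladders, the most ChIP reads were held by clusters with several tall sites. The 5 sites on chromosome 7 at 134376001 to 134405000 held 729, 757, 93, 828 and 237 ChIP reads, against 108, 136, 34, 189 and 54 input reads, 7.46 times the scaled input (6.79 to 8.21). The 6 sites on chromosome 11 at 120459001 to 120496000 held 782, 45, 445, 401, 69 and 778 ChIP reads, a ratio of 7.42 (6.74 to 8.19). On chromosome 7 at 13609001 to 13630000, a cluster of 4 sites opened with a site of 1255 reads, followed by sites of 64, 815 and 195. The site of 815 reads had 12 times the scaled input and the site of 64 reads only 1.77 times.

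The clusters with the highest ratio of ChIP to input had 3 sites each. The first, on chromosome 4 at 131816001 to 131831000, held 626, 41 and 376 ChIP reads against 66, 13 and 48 input reads, 12.1 times the scaled input (10.0 to 14.6). It was followed by the least even cluster of all, on chromosome 6 at 124854001 to 124869000, where sites of 206, 40 and 1026 ChIP reads stood against 50, 28 and 101 input reads (10.4, interval 8.92 to 12.3). The next was on chromosome 2 at 181316001 to 181335000 (ratio 9.38, interval 8.21 to 10.8). Chromosome 5 had a cluster of 429, 433 and 44 ChIP reads at 115263001 to 115277000 (ratio 9.12, interval 7.65 to 10.9). Chromosome 10 had a cluster of 60, 465 and 797 ChIP reads at 79844001 to 79863000 (ratio 8.91, interval 7.72 to 10.3). The intervals of neighbouring ranks overlapped. In each of these 5 clusters at least 1 site had more than 9 times the scaled input. That on chromosome 2 had no low site, with 327, 755 and 533 ChIP reads.

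At the other end, 1 cluster had fewer ChIP than scaled input reads. Its 4 sites, on chromosome 11 at 3057001 to 3074000, held 51, 46, 43 and 96 ChIP reads against 167, 130, 112 and 236 input reads, a ratio of 0.538 (0.461 to 0.625). The lowest bins of its gaps still held 18, 34 and 19 ChIP reads, so these sites stood little above their surroundings. Beside the chromosome 6 ladders, the lowest ratios were found in 4 sites of chromosome 11 at 119852001 to 119875000 (1.87, interval 1.56 to 2.25) and in 5 sites of chromosome 10 at 77222001 to 77258000 (1.92, interval 1.61 to 2.3). The sites of the chromosome 10 cluster held 43, 47, 63, 88 and 52 ChIP reads against 28, 47, 43, 72 and 34 input reads. In all, 6 clusters were below 2 times the scaled input. By this scale a ratio of 1 is not the background level. Bins below 40 ChIP reads held 1.36 ChIP and 4.67 input reads per kb, also fewer ChIP than scaled input reads. Taken from bins below 5 ChIP reads, the scale was 0.237 instead of 0.68.

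**Figure D3:**
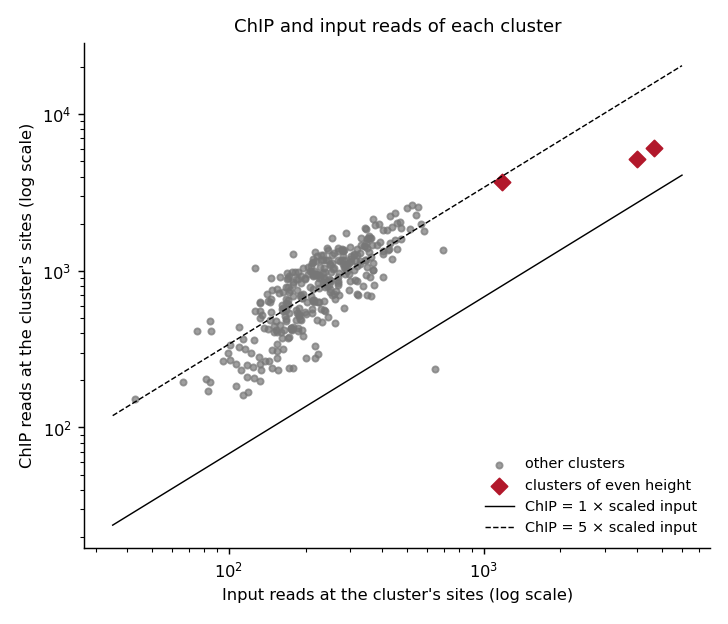
ChIP reads (y axis, log scale) against input reads (x axis, log scale) at the sites of each cluster, with clusters of even height as diamonds and all others as dots. The lines mark ChIP equal to 1 and 5 times the scaled input. The ladders have the highest input, up to 4652 reads, and 1 cluster with 236 ChIP and 645 input reads lies below the lower line.

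Cluster sites were enriched over input, though less than single sites were. Summed over sites, ChIP was 5.03 times the scaled input in clusters (4.99 to 5.07), against 5.89 in pairs (5.86 to 5.93) and 6.3 in single sites (6.28 to 6.31). Without the ladders, the value in clusters was 5.38 (5.34 to 5.42). ChIP reached 3 times the scaled input in 867 of 1232 cluster sites with at least 10 input reads (70.4%), in 76.6% of such paired sites and in 82.3% of such single sites, while 7.01% of all bins with at least 10 input reads did. Since ChIP reads chose the sites, these values describe them and test nothing. With the scale taken from bins below 5 ChIP reads, the ratio in clusters was 14.4.

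Input itself was high at cluster sites. The median cluster site held 59 input reads (interquartile range 37 to 89.25), against 60 in pairs (37 to 87) and 60 in single sites (34 to 93). A bin with at least 5 times the mean input was present at 1118 of 1236 cluster sites (90.5%, exact binomial interval 88.7 to 92.0), at 1823 of 2058 paired sites (88.6%) and at 10645 of 12484 single sites (85.3%, 84.6 to 85.9). Of all bins, 1.22% reached that level.

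Among sites of like ChIP count below 400 reads, the median input was higher in clusters. At 40 to 59 ChIP reads, the median input was 30 reads at 227 cluster sites, 27 at paired sites and 25 at 1937 single sites. At 60 to 99 ChIP reads it was 37 at cluster sites, 36 at paired sites and 32 at single sites. In the same order it was 54, 53 and 49 from 100 to below 200 ChIP reads. From 200 to below 400 it was 77, 70 and 71, and the 77 of cluster sites stayed without the ladders. From 400 to below 800 ChIP reads, with the ladders left out, it was 101 at cluster sites, against 98 at paired and 100 at single sites. At 800 or more ChIP reads it was 140 at cluster sites, 148.5 at paired and 145 at single sites. The interquartile ranges overlapped at every level, for example 23 to 37 at cluster sites and 19 to 31 at single sites of 40 to 59 ChIP reads. With 1 library of each kind, a difference between sets of sites has no replicate check.

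**Figure D4:**
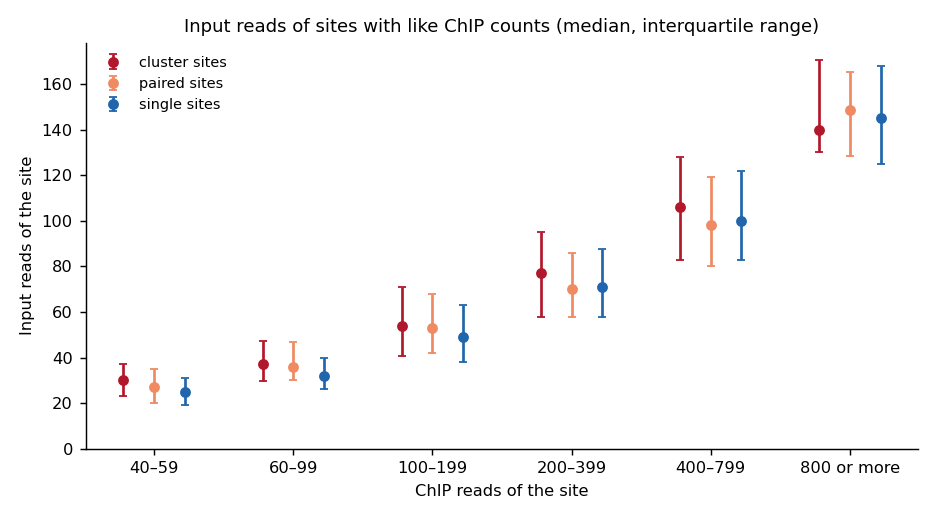
Median input reads per site (y axis; bars are interquartile ranges over sites) for cluster, paired and single sites, left to right within each range of ChIP reads per site (x axis). At 40 to 59 ChIP reads the medians are 30, 27 and 25 input reads, and from 200 to below 400 they are 77, 70 and 71.

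The sequence between the sites of a cluster was also deeper than sequence beside single sites. Gap bins at least 3 bins away from any site of their cluster, ladders left out, held 3.08 ChIP and 7.55 input reads per kb over 1502 bins. The matching bins, 3 to 5 bins away from single sites and below 40 ChIP reads, held 1.52 ChIP and 5.8 input reads per kb. All bins below 40 ChIP reads held 1.36 and 4.67. Depth in both libraries was thus higher in these gaps than beside single sites, by more in ChIP than in input. By the rule, gap bins lie between neighbouring sites chosen by ChIP reads, while single sites have no other site within the allowed gap. The ChIP values therefore describe that choice and test nothing. Whether the raised input depth of the gaps had a part in the higher input of low cluster sites was not tested.

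The share of wide sites and the repetition of reads were similar. Reads of low cluster sites and of low paired sites were more closely placed than those of low single sites. Of cluster sites, 37.7% were 2 bins wide, against 37.4% of paired and 40.1% of single sites. The median interquartile range of read positions was 163.5 bp at cluster sites of 40 to 59 ChIP reads, against 172 bp at paired and 210.5 bp at single sites. At 60 to 99 ChIP reads it was 220.25 bp in clusters, 214.5 bp in pairs and 262 bp in single sites. From 100 to below 200 ChIP reads it was 197.5 bp in clusters, 161 bp in pairs and 287 bp in single sites, and from 200 to below 400 it was 169.75, 169.5 and 179.5 bp. ChIP positions were read 2.5 times on average at cluster sites, 2.67 times at paired and 2.64 times at single sites, and input positions 1.18, 1.18 and 1.2 times. Among sites of 40 to 59 ChIP reads the ChIP value was 1.88 in clusters and 1.67 in single sites.

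Clusters were unevenly shared among chromosomes. Chromosome 7 held 52, the most, followed by 38 on chromosome 11 and 27 on chromosome 8, whereas chromosome 13 held 2, chromosome X 4, and chromosomes 1, 14 and 16 held 5 each. Per 100 Mb, chromosomes 7 and 11 had 34.1 and 31.2 clusters, and chromosomes X and 13 had 2.4 and 1.66.

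Chromosomes with like site density differed in how far sites lay in clusters. Chromosomes 7, 17 and 4 had 7.22, 7.27 and 7.27 sites per Mb. On chromosome 7, 16.9% of 1101 sites lay in clusters (exact binomial interval 14.7 to 19.2), on chromosome 17 11.8% of 693 (9.52 to 14.5), and on chromosome 4 7.52% of 1131 (6.05 to 9.21), 15 of whose 85 cluster sites belonged to the ladder. Chromosome 11 had the highest site density, 9.53 per Mb, and 12.1% of its sites in clusters. Chromosomes 1, 3, 13, 14 and X, each below 5 sites per Mb, had 1.69% to 2.98% in clusters, and chromosome 18, with 4.82 sites per Mb, had 5.25%.

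**Figure D5:**
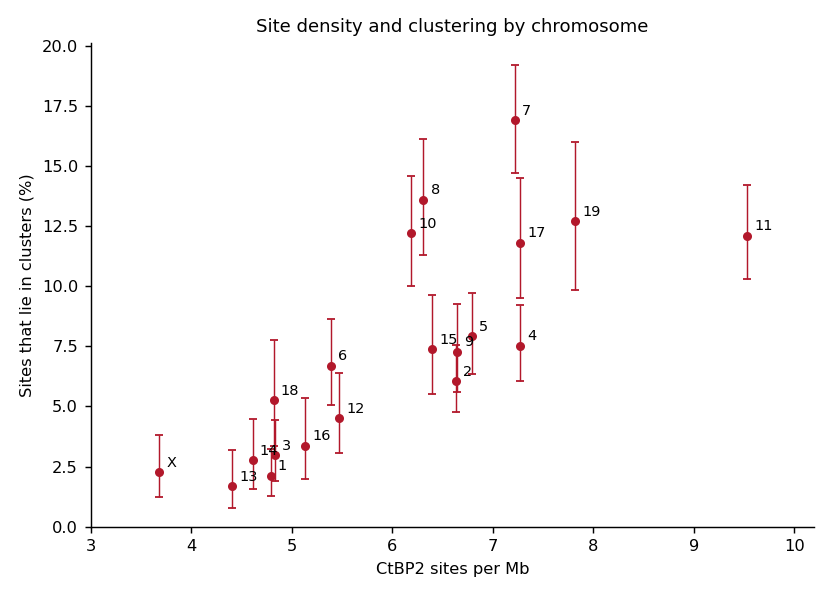
Share of CtBP2 sites that lie in clusters (y axis, percent; bars are exact 95% binomial intervals for counting error) against sites per Mb (x axis) for each chromosome. Chromosome 7 has 16.9% in clusters and chromosome 4 has 7.52% at almost the same site density.

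Some clusters also lay near each other. In 59 cases the next cluster began within 100 kb. At least 3 clusters lay in each of 31 stretches of 1 Mb, 119 of the 333 in all. Such counts were not made for all sites, so whether this closeness is particular to clusters was not tested. The stretch from 80 to 81 Mb of chromosome 10 held 11 clusters with 50 sites. It was followed by 73 to 74 Mb of chromosome 8 with 6 clusters and 31 sites, 79 to 80 Mb of chromosome 10 with 6 and 27, and 52 to 53 Mb of chromosome 7 with 6 and 20.

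The same rule applied to the input library also found clusters. With all distinct input reads there were 11196 input sites and 226 input clusters, of which 138 (61.1%) overlapped a CtBP2 cluster, and 135 CtBP2 clusters (40.5%) overlapped an input cluster. With input reads thinned at random to the ChIP total, 6887 input sites and 49 input clusters were left. Of these, 37 (75.5%) overlapped a CtBP2 cluster, and 37 CtBP2 clusters (11.1%) overlapped them. Overlaps of paired and single sites with input sites are not given here, so whether these shares are particular to clusters was not tested. A bin with at least 5 times the mean input was present at 90.5% of cluster, 88.6% of paired and 85.3% of single sites. The share of sites in clusters was 7.83% for CtBP2, against 7.33% for all distinct input reads and 2.6% for thinned input.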

How the data were processed

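The deposited files hold aligned reads in BED format, 1 line per read, 33 to 38 bp long and mostly 36 bp. Each deposited line stands for a count of 1 read, and these lines were added up as raw counts. The deposited score holds only 0 and served no purpose here. The submitters' processing notes name BWA, SAMtools 0.1.19, bedtools 2.17.0 and build mm9, without settings. The placing of reads with several matches is unknown here. Repeats of a read were collapsed in this re-analysis, which limits how high a count can rise and keeps 24.277% of ChIP and 59.872% of input reads.

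Reads were counted by 5 prime end in 1 kb bins. A run of 3 or more bins was not a site and did not end a chain. Python 3.11.15, NumPy 2.4.6, SciPy 1.17.1, pandas 2.3.3 and matplotlib 3.10.9 were used. The chain caller was tested on simulated data with planted clusters. Intervals on ratios of reads are exact conditional binomial intervals. With 1 library per group no test between groups was made. Clusters were named by a fixed rule: the 10 with most sites, the 8 with most ChIP reads, the 5 with the highest and the 5 with the lowest ratio among those with at least 100 input reads, and the most and least even, 21 clusters in all. The cluster of chromosome 11 at 98195001 to 98220000 and 2 regularly spaced clusters of chromosomes 15 and 18 were named after their values were seen. The members, lists and rules were chosen with earlier results of these data known. Planned gene and sequence results need an mm9 annotation and were not run.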

Additional observations from a re-analysis of the deposited data

How the results depend on the processing

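No paired analysis was possible because there was a single library of each kind. The number of clusters, 333, became 217 with a threshold of 60 reads, 158 with gaps of at most 5 kb, 656 with gaps of at most 20 kb and 586 with all deposited reads. The same rule gave 49 on thinned input and 226 on all distinct input. It was within 1.5 times of 333 with a threshold of 30 reads (448), with 10 kb measured from start to start (291), with chains ended by longer runs (329), with bins from position 500 (335) and with reads moved 110 bp (365). Bins from position 500 overlapped only 246 of the 333 clusters, so single members depend on where bins start. The share of sites in clusters, 7.83%, was 9.74% and 5.98% with thresholds of 30 and 60 reads, 3.45% and 17.1% with gaps of 5 and 20 kb, 6.75% from start to start, 8.46% with moved reads and 12.1% with all deposited reads. The ratio of ChIP to scaled input, 5.03, was 4.74 and 5.2 with those thresholds, 4.35 and 5.52 with those gaps, 4.91 from start to start, 5.1 with bins from position 500, 3.96 with all deposited reads and 14.4 with the background scale. Without the 3 ladders, chosen after the data were seen, it was 5.38 over 330 clusters with 7.65% of sites.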
